A study of Homo sapiens with 4 samples.

Results

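The 7 transcription factors SOX9, ASCL2, GFI1B, GFI1, HMX2, HMX3 and SPIB were followed in RNA sequencing of NCI-H1048 cells, a human line established from a small cell lung cancer and used as a model of its tuft cell-like form. They were chosen by gene symbol as factors linked to tuft cells, with earlier results of these data known. All 7 were found among 35979 symbols, each as a single gene row. All 7 were also among the 14940 genes kept for the comparisons, whose normalized counts averaged 20 or more over the libraries. Of the 4 libraries, 2 came from cells given different guide RNAs to COLCA2 (genotype label COLCA2 knockout), here guide 1 and guide 2. Of the others, 1 came from cells given a guide to POU2F3 (genotype label POU2F3 knockout) and 1 from cells given a non-targeting guide (genotype label WT), here the control. The labels give no time after the guide and do not say whether the cells were clones or pools.

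Tuft cells are rare chemosensory cells of the airway and gut epithelium, and POU2F3 is the homeodomain factor they depend on. POU2F3 binds an octamer DNA motif through its POU domain and works with small co-activators, among them C11orf53 and COLCA2. A tuft cell arises from an epithelial progenitor, and the factors followed here are known from stem, progenitor or mature cells. SOX9 is an HMG-box factor of progenitors that tuft cells keep, and ASCL2 is a basic helix-loop-helix factor of intestinal stem cells. GFI1 and GFI1B are zinc finger repressors that recruit LSD1 and CoREST. HMX2 and HMX3 are homeobox factors encoded side by side, and SPIB is an ETS factor known from B cells and from M cells of the gut.

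Promoter windows from RefSeq (GRCh38.p14, 250 bases before to 50 after a start) were matched for 5 of the factors, GFI1B, GFI1, HMX2, HMX3 and SPIB. SOX9 and ASCL2 had no entry. The windows were searched on both strands for the octamer ATGCAAAT, the motif that POU2F3 and related factors bind. Of 35116 windows of 300 bases in the table, 1.77% held it. GFI1 had 3 windows, GFI1B had 2, and HMX2, HMX3 and SPIB had 1 each. Among these windows, that of HMX2 held 1 match, on the plus strand, beginning 65 bases before the start. The HMX3 window, from the gene beside it, held none. Both are printed because these genes were lower together in all the targeted libraries, with the octamer in capitals.

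HMX2, chr10:123147886-123148185, plus strand: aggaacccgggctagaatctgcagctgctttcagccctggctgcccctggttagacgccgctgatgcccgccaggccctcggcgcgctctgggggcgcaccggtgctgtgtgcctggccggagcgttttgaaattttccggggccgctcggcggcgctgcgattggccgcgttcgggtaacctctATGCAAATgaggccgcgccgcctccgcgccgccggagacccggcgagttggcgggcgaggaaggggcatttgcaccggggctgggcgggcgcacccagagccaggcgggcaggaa
HMX3, chr10:123135720-123136019, plus strand: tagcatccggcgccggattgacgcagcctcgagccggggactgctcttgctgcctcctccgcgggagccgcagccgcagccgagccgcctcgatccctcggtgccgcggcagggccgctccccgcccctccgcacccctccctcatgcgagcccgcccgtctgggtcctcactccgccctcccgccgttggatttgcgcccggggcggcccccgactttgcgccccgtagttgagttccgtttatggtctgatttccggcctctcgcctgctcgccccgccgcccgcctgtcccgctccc

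GFI1B had 2 windows, for an outer start and for an inner start, and neither held the octamer. The inner window is printed because GFI1B had the lowest remaining level of the 7 factors.

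GFI1B inner start, chr9:132978444-132978743, plus strand: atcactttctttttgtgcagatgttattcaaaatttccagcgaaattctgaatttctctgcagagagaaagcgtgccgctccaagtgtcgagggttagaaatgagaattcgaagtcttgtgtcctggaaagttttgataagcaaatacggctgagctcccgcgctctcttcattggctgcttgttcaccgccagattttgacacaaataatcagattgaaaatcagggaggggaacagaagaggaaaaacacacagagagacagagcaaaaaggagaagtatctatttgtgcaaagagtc

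Motifs of the factors themselves were searched in the same way. An E box spelled CAGCTG, the kind bound by ASCL2, occurred in the HMX2 window and in 17.9% of all windows. A GFI1 core spelled AATCNCNGC occurred in the HMX2 window, 95 bases before the start on the minus strand, and in 4.22% of all windows. A SOX motif spelled AACAANG occurred in the outer GFI1B window and in 12.1% of all windows. A PU box spelled GAGGAAGT, the kind bound by SPIB, occurred in none of the factors' windows and in 2.59% of all windows. None of these motifs overlapped the octamer in HMX2. A match describes the letters only, and no binding was measured.

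The reads assigned to genes numbered between 21587741 and 29632382 per library. The targeted genes were themselves lower: POU2F3 stood at 9.92% of its control level under the POU2F3 guide, and COLCA2 at 55.8% and 63.4% under guides 1 and 2. Each was also lower under the other guides: COLCA2 stood at 24.9% under the POU2F3 guide, below its level under either COLCA2 guide, and POU2F3 at 25.2% and 16.1% under guides 1 and 2. Every ratio to the control uses the same single library, and the POU2F3 library had no replicate. Differences between those libraries therefore have no replicate check, and the spread between the COLCA2 guides, which mixes guide, culture and library, was the only error within a group. A gene is counted here as changed at 2-fold on the log2(normalized count + 1) scale, for COLCA2 with both guides, and intervals are 95% exact (Clopper-Pearson) intervals that cover counting error only. As a check, edgeR's quasi-likelihood test was fitted over all 14940 genes, with a spread that rests on the COLCA2 pair, and its p-values are adjusted by Benjamini-Hochberg.

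All 7 factors were lower in each of the 3 targeted libraries than in the control, as were 35.3% of all genes tested. The factors were chosen with earlier results of these data known, so the shares of all genes given beside their counts are a description only. Under the POU2F3 guide 6 of the 7 were at least 2-fold lower, GFI1 being the exception, against 3.05% of all genes. Under both COLCA2 guides 3 of them, SOX9, GFI1B and HMX2, were at least 2-fold lower, against 2.02% of all genes. Under guide 1 taken alone 4 were, with ASCL2 added (3.19% of all genes), and under guide 2 taken alone 4 were, with HMX3 added (3.64%). None of the 7 was 2-fold higher under the POU2F3 guide, where 6.73% of all genes were, or under both COLCA2 guides, where 5.79% were. The factors had a median log2 ratio of -1.24 under the POU2F3 guide, -1.004 under guide 1 and -1.14 under guide 2, where the medians of all genes tested were -0.0037, -0.0052 and -0.0017. At a 4-fold threshold 1 factor, GFI1B, was lower under the POU2F3 guide (0.756% of all genes) and none under both COLCA2 guides (0.295%). At 1.5-fold 6 were lower under both COLCA2 guides (6.03%). In RNA from whole cultures, fewer cells that express a factor and less RNA of it per cell cannot be told apart.

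The levels of the factors spanned a wide range. Per kilobase of the longest annotated transcript, the normalized count in the control was 4536 for SOX9, 4192 for HMX3, 1035 for HMX2, 629 for GFI1B, 247 for ASCL2, 36.3 for SPIB and 19.7 for GFI1. On this scale SOX9 exceeded 98.3% and HMX3 98.1% of the genes tested, whereas GFI1 exceeded 13.8%. Under the COLCA2 guides the order of neighbours was clear only in part. The levels of SOX9 (2151 and 1689 per kilobase) and HMX3 (2264 and 1899) overlapped between the guides, although HMX3 was above SOX9 within each of these libraries, the reverse of the control. Those of GFI1B (172 and 104) and ASCL2 (123 and 131) overlapped too, with GFI1B above ASCL2 under guide 1 and below it under guide 2. With the POU2F3 guide the GFI1B level was 60.0 per kilobase and stood below the 103 of ASCL2, while the other factors kept the order of the control.

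**Figure D1:**
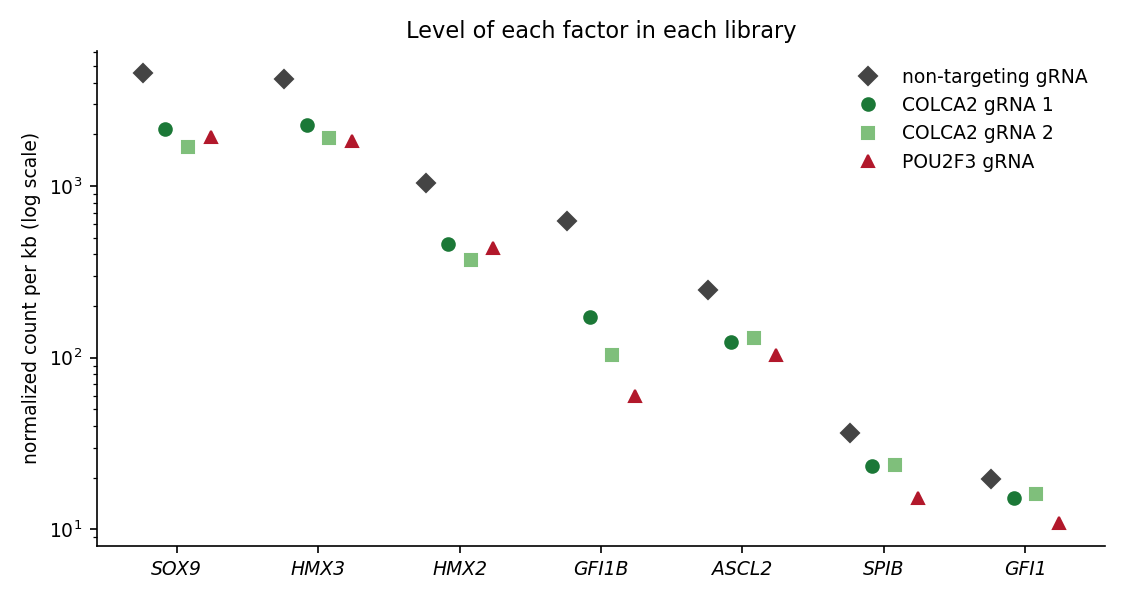
Normalized count per kilobase of the longest annotated transcript (log scale) of the 7 factors, with 1 point per library. The control is the highest point for all 7 factors, and GFI1B has the widest spread, from 629 to 60.0.

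The progenitor factors SOX9 and ASCL2 were lower by similar amounts under the POU2F3 guide and differed in how alike the COLCA2 guides were. SOX9 (ENSG00000125398, chromosome 17, 72121020 to 72126420, plus strand) stood at 17848 normalized counts in the control, 8463 under guide 1, 6645 under guide 2 and 7566 under the POU2F3 guide. The control value was the highest by far, and the POU2F3 value lay between those of the COLCA2 guides. SOX9 thus stood at 42.4% of the control level under the POU2F3 guide (interval 41.3% to 43.5%), and its mean log2 ratio under the COLCA2 guides was -1.25 ± 0.25 (SD, n = 2). By edgeR's test the adjusted p of SOX9 was 0.0041 for POU2F3 and 0.0013 for COLCA2. The antisense gene SOX9-AS1 spans the locus but shares no annotated exon base with SOX9.

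ASCL2 (ENSG00000183734, chromosome 11, 2268495 to 2270952, minus strand) stood at 458 normalized counts in the control, 228 and 242 under guides 1 and 2, and 191 under the POU2F3 guide. The COLCA2 guides were close to each other and the POU2F3 library was the lowest. The remaining level of ASCL2 was 41.8% under the POU2F3 guide (interval 35.5% to 49.0%), from 228 reads against 480. Under the COLCA2 guides it was 49.8% and 52.9%, just inside and just outside the 2-fold threshold, for a log2 ratio averaging -0.96 ± 0.061 (SD, n = 2). The adjusted p of ASCL2 by edgeR was 0.011 for POU2F3 and 0.012 for COLCA2. DESeq2 gave 0.039 for POU2F3 and 0.067 for COLCA2, so the ASCL2 call for COLCA2 depended on the tool.

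The zinc finger repressors GFI1B and GFI1 differed most within the group. GFI1B (ENSG00000165702, chromosome 9, 132944000 to 132991687, plus strand) stood at 1899 normalized counts in the control, 520.45 under guide 1, 315 under guide 2 and 181 under the POU2F3 guide. The control was far above the other libraries, which followed in the order guide 1, guide 2, POU2F3; the step from guide 2 to POU2F3 was about as large as that between the COLCA2 guides. GFI1B was 10.5-fold lower under the POU2F3 guide, and only 33 of the 14940 genes had a lower ratio. It stood at 27.4% (interval 24.8% to 30.2%) under guide 1 and at 16.6% (interval 14.6% to 18.9%) under guide 2, for a log2 ratio averaging -2.23 ± 0.51 (SD, n = 2). The adjusted p of GFI1B by edgeR was 0.000986 for POU2F3 and 0.0014 for COLCA2.

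GFI1, the close relative of GFI1B (ENSG00000162676, chromosome 1, 92474762 to 92486876, minus strand), was scarce, with 59 reads in the control, 42 and 39 under guides 1 and 2, and 37 under the POU2F3 guide. Its normalized counts were 56.3, 43.5, 45.9 and 31.1 in the same order. The POU2F3 value was the lowest and the COLCA2 values lay near each other. GFI1 stood at 55.1% of the control level under the POU2F3 guide, with an interval of 35.5% to 84.5%. Under the COLCA2 guides it stood at 77.3% and 81.4%, and both intervals included 100%, so a difference was not detectable at this depth. The adjusted p of GFI1 by edgeR was 0.31 for POU2F3 and 0.61 for COLCA2. Among the reads of GFI1 and GFI1B together, GFI1 took 2.88% (interval 2.20% to 3.70%) in the control and 14.6% (interval 10.5% to 19.6%) under the POU2F3 guide. GFI1B remained the more abundant of the pair in every library.

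**Figure D2:**
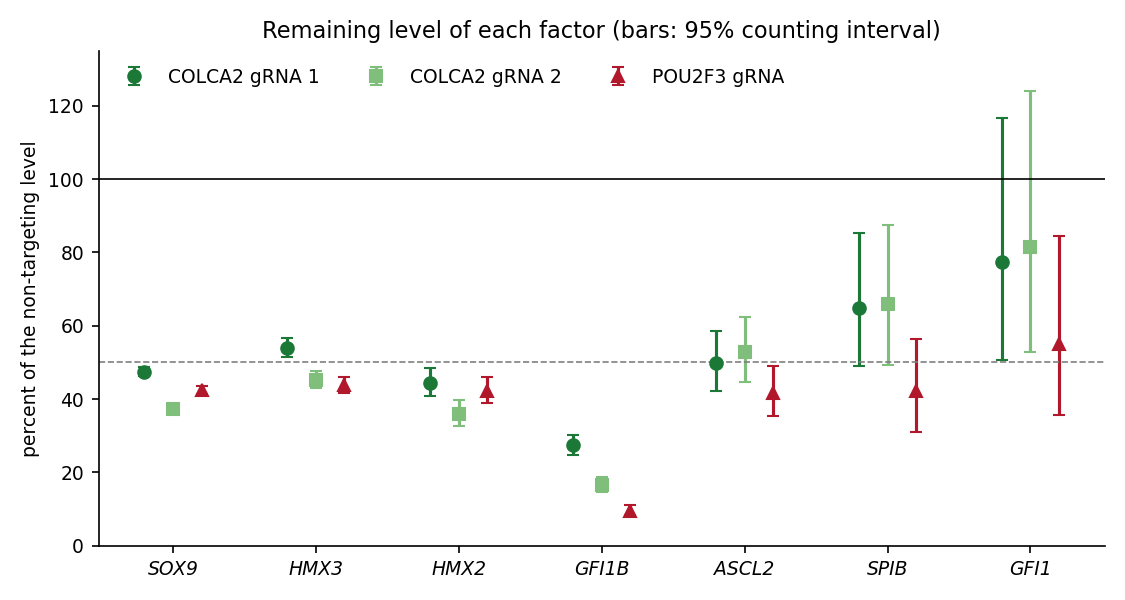
Percent of the control level that remained for each factor in the 3 targeted libraries, with 95% counting intervals as bars; the solid line is 100% and the dashed line 50%. GFI1B is lowest, down to 9.55% under the POU2F3 guide, and the intervals of GFI1 reach 100% under both COLCA2 guides.

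The homeobox factors HMX2 and HMX3 lie side by side on the plus strand of chromosome 10. HMX3 (ENSG00000188620, 123135962 to 123137741) stood at 4917 normalized counts in the control, 2656 under guide 1, 2227 under guide 2 and 2153 under the POU2F3 guide. HMX2 (ENSG00000188816, 123148122 to 123150672), the gene with the octamer in its promoter window, had 1684, 749, 606 and 712 in the same order. For both genes the 3 targeted libraries lay close together, well under the control. HMX3 stood at 43.8% and HMX2 at 42.3% of the control level under the POU2F3 guide. Averaged over the COLCA2 guides, the log2 ratio was -1.02 ± 0.18 for HMX3 and -1.32 ± 0.22 for HMX2 (SD, n = 2). HMX3 missed the 2-fold threshold with guide 1, at 54.0%, and passed it with guide 2, at 45.3%. The adjusted p by edgeR was 0.0027 for HMX3 and 0.0051 for HMX2 under the POU2F3 guide, and 0.0019 and 0.0014 under the COLCA2 guides.

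The pair kept nearly the same proportions. HMX2 gave 25.5% (interval 24.5% to 26.6%) of the reads of both genes in the control and 24.8% (interval 23.4% to 26.3%) under the POU2F3 guide. It gave 22.0% (interval 20.6% to 23.4%) under guide 1 and 21.4% (interval 19.8% to 23.1%) under guide 2. The share under the COLCA2 guides was thus slightly smaller, beyond counting error. Their relative HMX1, on another chromosome, was not 2-fold apart in any library: it stood at 2129 normalized counts in the control, 1956 and 1929.9 under guides 1 and 2, and 1762 under the POU2F3 guide.

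SPIB (ENSG00000269404, chromosome 19, 50418938 to 50431313, plus strand) stood at 138 normalized counts in the control, 89.2 and 90.6 under guides 1 and 2, and 57.9 under the POU2F3 guide. The COLCA2 guides nearly coincided, between the other libraries. SPIB stood at 42.1% under the POU2F3 guide (interval 31.1% to 56.5%) and at 64.8% and 65.9% under the COLCA2 guides, from 69 to 144 reads per library. The mean log2 ratio with the guides was -0.61 ± 0.016 (SD, n = 2). The adjusted p of SPIB by edgeR was 0.071 for POU2F3 and 0.21 for COLCA2, so SPIB passed the fold threshold for POU2F3 but not the test. Another gene, AC020909.1, annotated as protein coding, covers 19.6% of the exon bases of SPIB on the same strand and was listed at 0 in all libraries.

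By edgeR's test 5 of the 7 factors, SOX9, ASCL2, GFI1B, HMX2 and HMX3, were lower under the POU2F3 guide, against 3.98% of all genes. For COLCA2 those 5 also passed, against 7.51% of all genes. DESeq2 called the same 5 for POU2F3 (2.69% of all genes) and, without ASCL2, 4 for COLCA2 (4.22%). The POU2F3 guide and the control had 1 library each, so the spread in these tests came from the COLCA2 pair. That pair had different guides and was used as replicates, also for the POU2F3 comparison. These counts, and the adjusted p-values of single factors, therefore cannot show whether a difference would recur in replicate libraries.

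A direct comparison of the POU2F3 library with the COLCA2 libraries leaves the shared control out. The POU2F3 level was below both COLCA2 guides for ASCL2, GFI1B, GFI1, HMX3 and SPIB, a pattern that 38.9% of all genes showed, and between the guides for SOX9 and HMX2. No factor was at least 2-fold lower than under each COLCA2 guide (0.924% of all genes) or 2-fold higher (0.442%). At 1.5-fold, GFI1B and SPIB were lower (2.5% of all genes). The edgeR test called none of the 7 lower (0.234% of all genes), 1 of them, GFI1B, having an unadjusted p under 0.05, and DESeq2 called 1, GFI1B (0.622%). GFI1B came nearest, at 34.8% (interval 29.6% to 40.9%) of the level under guide 1 and 57.5% (interval 47.9% to 69.1%) of that with guide 2. The mean log2 difference of GFI1B was -1.16 ± 0.51 (SD over the guides), with an adjusted p of 0.18 by edgeR and 0.019 by DESeq2. SPIB stood at 65.0% and 64.0% of the guides' levels, with a mean difference of -0.62 ± 0.016 and an adjusted p of 0.46 by edgeR.

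The COLCA2 guides themselves were not alike for every factor. Guide 2 gave the lower level for SOX9, GFI1B, HMX2 and HMX3, by log2 differences of 0.35, 0.72, 0.31 and 0.25 between the guides. ASCL2, GFI1 and SPIB differed between the guides by at most 0.087. The median absolute difference between the guides over all genes was 0.13, and 2.22% of all genes, none of them a factor of this group, were at least 2-fold apart. POU2F3 itself was lower under guide 2 than under guide 1, at 16.1% against 25.2% of the control level, whereas COLCA2 was not, at 63.4% against 55.8%. The part of the POU2F3 level in the factors' differences between the guides was not tested.

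Likeness of pattern was measured as the Euclidean distance between log2 profiles centred over the 4 libraries, against 12001 or 12002 genes whose normalized counts averaged 100 or more. For GFI1B the nearest gene was POU2F3, at a distance of 0.13, and no other gene lay within 0.25. ALOX5, the enzyme that starts leukotriene synthesis, followed at 0.38 and GRASP at 0.44. SOX9 and HMX2 were alike: HMX2 was the nearest gene to SOX9 at 0.076, and SOX9 was the second nearest to HMX2 after ZCCHC12. The other factors had many near neighbours, from 20 genes within 0.25 for SPIB to 104 for GFI1. The nearest 3 genes were CENPE, SGK1 and RGS2 for ASCL2, RP9P, NAT8L and ARID3B for HMX3, ETV7, RPS6KL1 and LRRN2 for GFI1, and ART3, DPH6 and TMEM159 for SPIB. DCP2 was the third for both SOX9 and HMX2, and ZCCHC12 the second for SOX9. With only 4 libraries, one of them the control of all ratios, these distances are a description.

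**Figure D3:**
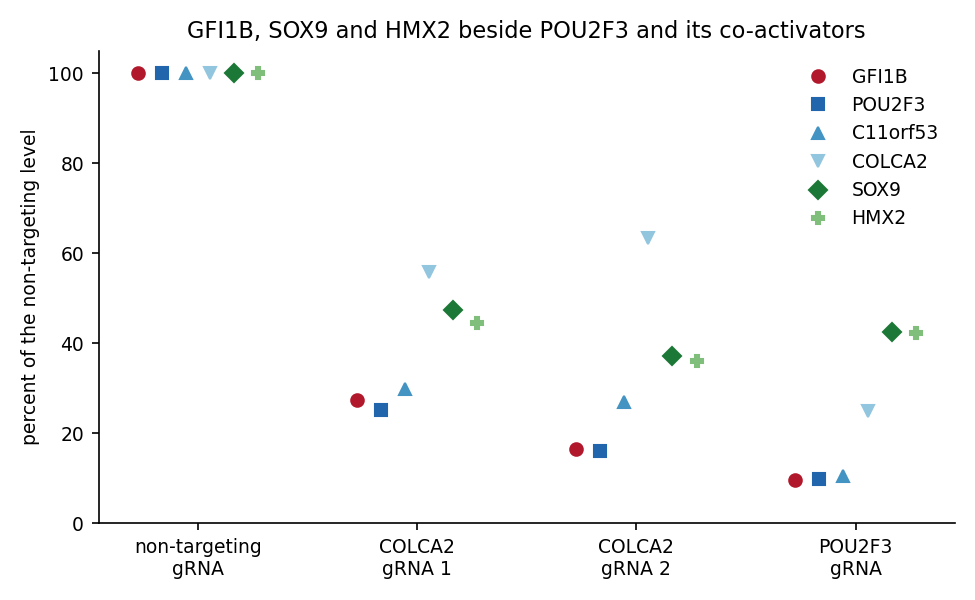
Percent of the control level of GFI1B, SOX9 and HMX2 and of POU2F3, C11orf53 and COLCA2 in each library; each gene has its own marker. GFI1B (27.4%, 16.6% and 9.55%) lies beside POU2F3 (25.2%, 16.1% and 9.92%), and SOX9 and HMX2 lie beside each other.

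The genes next to the factors were examined for changes of the same kind. Within 500 kb of the 6 factors that had tested neighbours, 43 other genes were tested; 2 of them were at least 2-fold lower under the POU2F3 guide and 1 was higher, where 3.05% and 6.73% of all genes were, so these counts are near the background. The lower genes were TSC1 beside GFI1B and ACADSB beside the HMX genes, named after their values were seen. SOX9 had no tested neighbour in that range, and the closest, SLC39A11, started 971692 bases away.

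TSC1, which encodes an inhibitor of mTORC1, overlaps GFI1B on the opposite strand, and 349 of the annotated exon bases of GFI1B (5.72%) are shared with it. It stood at 2564 normalized counts in the control, 1522 and 1163 under guides 1 and 2, and 1091 under the POU2F3 guide, in the same order as GFI1B. Whether the authors' counting used the strand is not given in the sources used here, so reads from the shared bases cannot be assigned with certainty. TSC1 had a log2 ratio of -1.23 under the POU2F3 guide, against -3.38 for GFI1B.

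BUB3, which starts 6155 bases after HMX2, had log2 ratios of -0.22 under the POU2F3 guide and -0.22 and -0.25 under the COLCA2 guides. ACADSB, a mitochondrial acyl-CoA dehydrogenase gene 126983 bases before HMX3, stood at 4496 normalized counts in the control, 1890 and 1714 under the COLCA2 guides and 2059 under the POU2F3 guide. The other nearest tested neighbours, IGF2 and CD81 for ASCL2, EEF1A1P5 for GFI1B, GLMN and EVI5 for GFI1, and POLD1 and EMC10 for SPIB, had log2 ratios between -0.69 and 0.51 under the POU2F3 guide.

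**Figure D4:**
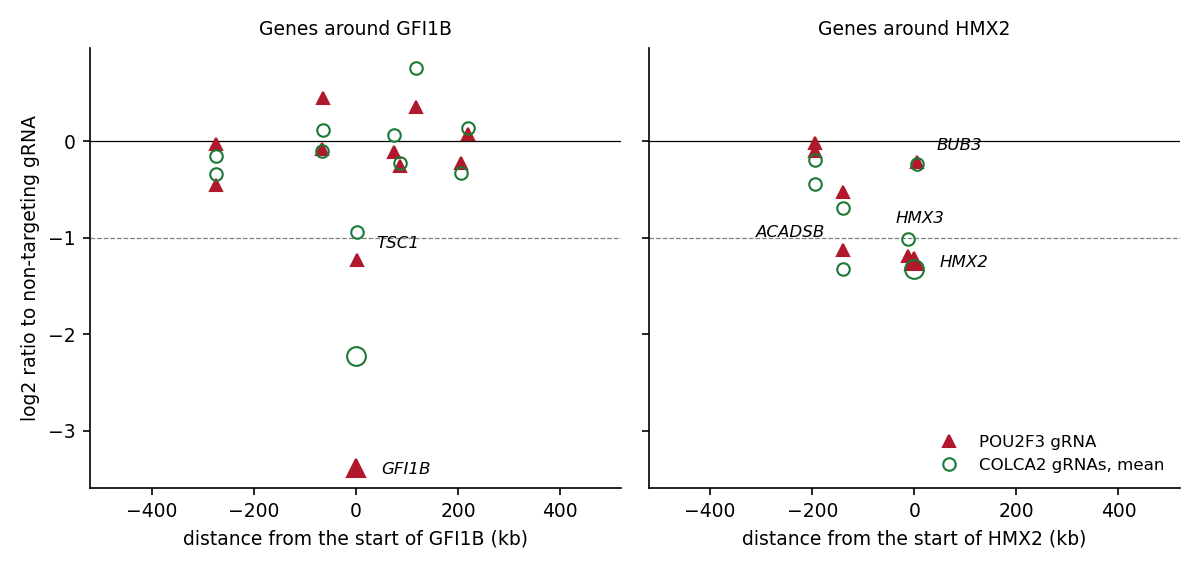
Log2 ratio to the control of tested genes within 500 kb of GFI1B (left) and HMX2 (right), against the distance between gene starts in kb; filled triangles are the POU2F3 guide and open circles the mean of the COLCA2 guides, and 1 gene listed at 0 in the control is not drawn. GFI1B stands far below its neighbours, with TSC1 at -1.23, and HMX2 lies with HMX3 and ACADSB near or below -1.

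Known protein partners of the factors were examined next. Of 14 partner genes, 12 were tested; none was 2-fold apart under the POU2F3 guide, and 1 was lower under both COLCA2 guides. Among all genes 3.05% were lower and 6.73% higher under the POU2F3 guide and 2.02% lower under both COLCA2 guides, so these counts are near the background. The lower gene was RCOR2, a CoREST subunit named after its value was seen, with a normalized count of 337 in the control, 119 and 134 under the COLCA2 guides and 199.8 under the POU2F3 guide. The most abundant partners, the inhibitor of helix-loop-helix factors ID3, the E protein TCF3 and the deacetylases HDAC1 and HDAC2, had log2 ratios of 0.91, -0.22, 0.10 and -0.15 under the POU2F3 guide. Of 9 close relatives of the factors only HMX1 and SOX8 were tested. SOX8, a SOX9 relative, had normalized counts of 68.8, 43.5, 41.2 and 35.3 in the order control, guide 1, guide 2 and POU2F3.

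Effector genes and markers of tuft cells were examined as a list, also chosen with earlier results of these data known. Of 24 such genes, 15 were tested; 9 were at least 2-fold lower under the POU2F3 guide and 1 was higher, against 3.05% and 6.73% of all genes. Under both COLCA2 guides 9 were lower and none higher, against 2.02% and 5.79% of all genes. Their median log2 ratio was -1.07 under the POU2F3 guide, -1.10 under guide 1 and -1.05 under guide 2. Ranked by the highest library of each gene, the most abundant were ALOX5, LRMP, the actin regulator AVIL and the receptor tyrosine kinase KIT. Their log2 ratios were -3.64, -4.58, -4.39 and -1.03 under the POU2F3 guide. That highest library was the control for all of them, so this ranking favours genes that were lower in the targeted libraries. IL17RB, named after its values were seen, was above ALOX5, LRMP and AVIL in every targeted library and had a log2 ratio of -0.66 under the POU2F3 guide. Not every tuft marker was present: TRPM5, the cation channel of taste-type signalling, had at most 2.35 normalized counts in any library, and CHAT at most 10.5. The single higher gene was LYN, named after its value was seen.

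Because GFI1, GFI1B and SPIB are also factors of blood cells, 12 blood markers were examined. Only LYZ, CD34 and HBA1 were tested, with at most 72.6 normalized counts. HBA1, with 15 reads in the control, was 2-fold higher under both COLCA2 guides, as were 5.79% of all genes. CD3E and PF4 were listed at 0 in all libraries, and PTPRC had 16.2 normalized counts in the control and between 8.29 and 9.41 in the targeted libraries. LYZ was also highest in the control, at 72.6 against 45.6, 48.2 and 61.3 under guide 1, guide 2 and the POU2F3 guide, whereas HBA1, CD34 and ITGAM were lowest there, ITGAM being listed at 0. The summed level of the list was 144 in the control and between 154 and 181 in the targeted libraries. The part of blood-type expression in the levels of GFI1, GFI1B and SPIB was not tested. Of 5 neuroendocrine markers, INSM1 and SYP were tested. INSM1, a zinc finger factor, had normalized counts of 118 in the control, 23.8 and 24.7 under the COLCA2 guides and 35.3 under the POU2F3 guide. SYP had 74.5, 60.1, 48.2 and 52.0 in the order control, guide 1, guide 2 and POU2F3. INSM1 was thus 2-fold lower under the POU2F3 guide and both COLCA2 guides, and SYP was not. Among all genes 3.05% and 2.02% were lower in these comparisons.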

How the data were processed

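Poly(A) RNA was prepared with TRIzol, DNase treatment and the NEBNext Ultra II RNA kit, per the labels' protocols. The authors deposited 1 normalized count for each gene, a signal on a linear scale, per the file headers. The submitters' processing notes name Salmon, DESeq2 and hg38, with no versions. Dividing by the smallest step turned 100% of values into whole numbers (within 0.01 reads), and these recovered reads may be rounded estimates. Rows of the same symbol were summed, the log2 ratio used a pseudocount of 1, and genes with a mean of at least 20 were kept. edgeR 4.0.16 (TMM, quasi-likelihood, 3 groups, 1 residual degree of freedom) and DESeq2 1.42.0 were run on the recovered reads. Both ran under R 4.3.3, with adjusted p at 0.05. The edgeR test and a 2-fold rule, but not DESeq2, were also tried on simulated data. Each COLCA2 guide had 1 library, so p-values measure the spread between these libraries, in which guide, culture and library cannot be told apart. GENCODE release 29 (GRCh38) gave positions and transcript lengths by gene identifier; the authors' annotation release is not given in the sources used here. Alternatives tried were 3 other scalings, pseudocounts of 0.1 and 10, no minimum or one of 100, thresholds of 1.5-fold and 4-fold, 1 row per symbol, both count tests, and each guide left out. The factors and the lists of partners, relatives, targets, tuft, blood, neuroendocrine, stem cell, cartilage, M cell and other lineage genes were chosen with earlier results of these data known. Named list genes are the 4 most abundant tested members, ranked by the highest library of each gene. Named neighbours are the nearest tested gene on each side, and exceptions are stated. The values of 1 such list gene are not reported here. Likeness used genes with a mean of at least 100 and left out symbols that only name a clone, naming the nearest 3.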

Additional observations from a re-analysis of the deposited data

How the results depend on the processing

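The number of factors 2-fold lower was 6 for the POU2F3 guide and 3 for both COLCA2 guides, and 0 for POU2F3 against each COLCA2 guide. A 1.5-fold threshold gave 6 for COLCA2 and 2 for POU2F3 against COLCA2, and a 4-fold threshold gave 1 for POU2F3 and 0 for COLCA2. edgeR's test gave 5 for COLCA2, with ASCL2 and HMX3 added, and 1122 lower genes in all against 302 by the fold rule; DESeq2 gave 630 and, for POU2F3 against COLCA2, 1 factor (GFI1B). With a single COLCA2 guide, POU2F3 against COLCA2 gave 0 to 1 factors (GFI1B against guide 1), and COLCA2 gave 4, HMX3 or ASCL2 being added. The 3 scalings, both other pseudocounts, both other minimums and the use of 1 row per symbol kept these counts within 1.5 times. No log2 ratio of a factor to the control changed sign in 98 recomputed values. Between POU2F3 and the COLCA2 guides, SOX9 and HMX2 differed by 0.013 and 0.080. Leaving guide 2 out reversed the sign of both, to -0.16 and -0.073. These were the only sign changes among the 56 values recomputed over all the factors for this comparison. No paired analysis was possible because only number 1 recurs across groups. Depth limits GFI1 and SPIB most, with 37 to 144 reads per library.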

Other observations

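Genes known to act with or under some of these factors moved in both directions, and the members named here beyond the 4 most abundant of each list were chosen after their values were seen. Of 12 cartilage genes of the SOX9 programme, 10 were tested; under the POU2F3 guide 1 was at least 2-fold lower and 3 were higher (3.05% and 6.73% of all genes), and under both COLCA2 guides 2 were lower and 2 higher (2.02% and 5.79% of all genes). COL2A1, the classic SOX9 target and a fibrillar collagen gene, stood at 72484 normalized counts in the control, 19853 and 16159 under guides 1 and 2, and 20815 under the POU2F3 guide. COL9A3 and SOX6 had log2 ratios of -0.16 and 0.28 under the POU2F3 guide, and HAPLN1, a cartilage link protein gene, had a log2 ratio of 2.68. COL9A1 rose from 13.4 to 151, with log2 ratios of 3.11 and 3.16 under the COLCA2 guides. Of 12 genes of the stem cell programme that goes with ASCL2, 10 were tested; 1 was lower and 3 were higher under the POU2F3 guide (3.05% and 6.73% of all genes), and none was lower and 3 were higher under both COLCA2 guides (2.02% and 5.79%). OLFM4 stood at 2.86 normalized counts in the control, from 3 reads, and at 62.2, 81.1 and 62.1 under guide 1, guide 2 and the POU2F3 guide. TNFRSF19 rose from 118 to 400.4 under the POU2F3 guide and RNF43 from 20.05 to 52.0, whereas EPHB3 fell from 1006 to 473 and CDCA7 and ZNRF3 stayed within 2-fold.

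Of 12 genes known as targets of GFI1 or GFI1B in blood cells, 11 were tested; 4 were higher and none was lower under the POU2F3 guide, against 6.73% and 3.05% of all genes, and 2 were higher and 1 lower under both COLCA2 guides, against 5.79% and 2.02%. CDKN1A, the cell cycle inhibitor p21, rose from 1166 normalized counts to 4083 under the POU2F3 guide and to 4718 and 5184 under the COLCA2 guides. EGR1 fell under the COLCA2 guides, from 15532 to 5864 and 5272, and ID2 stayed within 2-fold. Of 8 M cell genes that go with SPIB, 7 were tested; 2 were higher and none lower under the POU2F3 guide (6.73% and 3.05% of all genes) and likewise under both COLCA2 guides (5.79% and 2.02%). RELB, an NF-kB subunit, rose from 379 to 815 under the POU2F3 guide and to 1101 and 1103 under the COLCA2 guides, while MARCKSL1, TNFAIP2 and TNFRSF11A had log2 ratios of -0.40, 0.47 and -0.16 under the POU2F3 guide.

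Of 10 regulators of other epithelial lineages, 7 were tested; under the POU2F3 guide 5 were higher and 1 was lower (6.73% and 3.05% of all genes), and under both COLCA2 guides 4 were higher and 1 lower (5.79% and 2.02%). HES1, a Notch effector, rose from 1205 to 6436 under the POU2F3 guide and to 5700.1 and 5868 under the COLCA2 guides, and YAP1 had a log2 ratio of 2.22 under the POU2F3 guide. FOXI1, the ionocyte factor, fell from 1721 to 332 under the POU2F3 guide and to 498 and 360 under the COLCA2 guides. NKX2-1 had a log2 ratio of -0.53 under the POU2F3 guide. In the same list FOXJ1, the ciliated cell factor, and TP63, the basal cell factor, had log2 ratios of 2.04 and 2.03 under the POU2F3 guide, from 43.0 and 38.2 normalized counts in the control. These genes share the single control with all ratios above.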
